A study of Mus musculus with 9 samples.

Results

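The genes described here are 32 members of the p53 response: the gene of the transcription factor itself, its feedback regulators, and target genes that act in cell death, cell cycle arrest, DNA repair and metabolic stress. They were matched by name from a set list, with no rule on their values. The list was, however, chosen with earlier results of these data known. All 32 had a value in both of the authors' deposited tables, which hold 18971 genes for JICD1 and 19287 genes for NICD1. RNA had been sequenced from cultured astrocytes of mouse brain that carry the Ink4a-/- genotype, which transfected and control cells share. One group had been transfected with pcDNA HA-JICD1 puro, a vector for the HA-tagged intracellular part of the Notch ligand Jagged1. Another had received pcDNA NICD puro, a vector for the intracellular part of the receptor Notch1. The control group carried the empty vector, pcDNA puro. Each group had 3 libraries, 9 in all. The labels do not say whether the cells were a clone or a pool, nor whether the 3 libraries came from separate cultures.

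p53 is a transcription factor that is kept scarce by the ubiquitin ligase Mdm2 and is stabilised by DNA damage, oncogene activity and other stress. Its targets stop the cell cycle, repair DNA, adjust metabolism or trigger apoptosis, and some of them, Mdm2 among them, feed back to limit p53 itself. The Cdkn2a locus encodes the CDK inhibitor p16Ink4a and also Arf, which restrains Mdm2. The labels name Ink4a only and do not state whether Arf is lost in these cells. In astrocytes and gliomas this axis is known as a main barrier to unchecked growth.

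The authors' deposited tables give, for each gene, 1 log2 ratio of a transfected group over control and 1 score on a scale of 0 to 1, headed Probability. Neither table has values of single libraries. The ratios therefore carry no replicate error, no p-value and no known depth, and "higher" and "lower" state the direction of a ratio only. A gene is called scored if its score reached 0.8, and a ratio of 1 or more in absolute log2 value is called past 2-fold. A score curve was drawn from 694 genes whose negative ratios were equal in the JICD1 and NICD1 comparisons. Where a gene past 2-fold sat on that curve, a group was inferred to lie at a common low floor. Genes within 2-fold could not be called at the floor. A group at the floor was inferred for 12.4% of genes for JICD1 and 13.1% for NICD1, and no fold is given for such genes. The ligand's own gene went against its label: Jag1 was listed at a log2 ratio of -1.39 (score 0.759) in the authors' deposited table for JICD1, and at 1.36 (score 0.819) in that for NICD1. Notch1 was above control in both of the authors' deposited tables, at 1.33 (score 0.735) for JICD1 and 1.77 (score 0.815) for NICD1, so its ratio does not tell the groups apart. How far transcripts of the construct count toward Jag1 is unknown here, so the first group is called the libraries labelled JICD1.

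Most p53 target genes stayed within 2-fold of control with either construct. By the authors' deposited tables, 24 of 32 members lay within 2-fold in both comparisons, 8 passed it in at least one, and 4 passed it in both: the membrane protein gene Perp below control, and the antiproliferative gene Btg2, the mTORC1 inhibitor gene Ddit4l and the stress cytokine gene Gdf15 above it. The same joint counts over all genes were not computed, so these have no background beside them. In the libraries labelled JICD1, 5 members were past 2-fold higher (Gdf15, Ddit4l, Dram1, Btg2 and Zmat3) and 3 were past 2-fold lower (Pmaip1, Fas and Perp). These are 15.6% and 9.38% of the members, beside 14.5% higher and 14.4% lower among all genes of that table. With NICD1, 3 members were past 2-fold higher (Ddit4l, Gdf15 and Btg2) and 1 was lower (Perp), or 9.38% and 3.12% of the members, beside 16.6% and 12.1% of all genes. Among genes with no group at the inferred floor the shares were 9.69% higher and 9.2% lower for JICD1, and 10.6% higher and 7.35% lower for NICD1. This filter removes only genes past 2-fold, so the fall from the shares of all genes follows from its rule. Of the 30 members with no group at the floor for JICD1, 4 were past 2-fold higher and 2 lower (13.3% and 6.67%); of the 31 for NICD1, 2 were higher and 1 lower (6.45% and 3.23%). No difference from the background was tested, and nothing particular to the list is read from the counts.

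**Figure D1:**
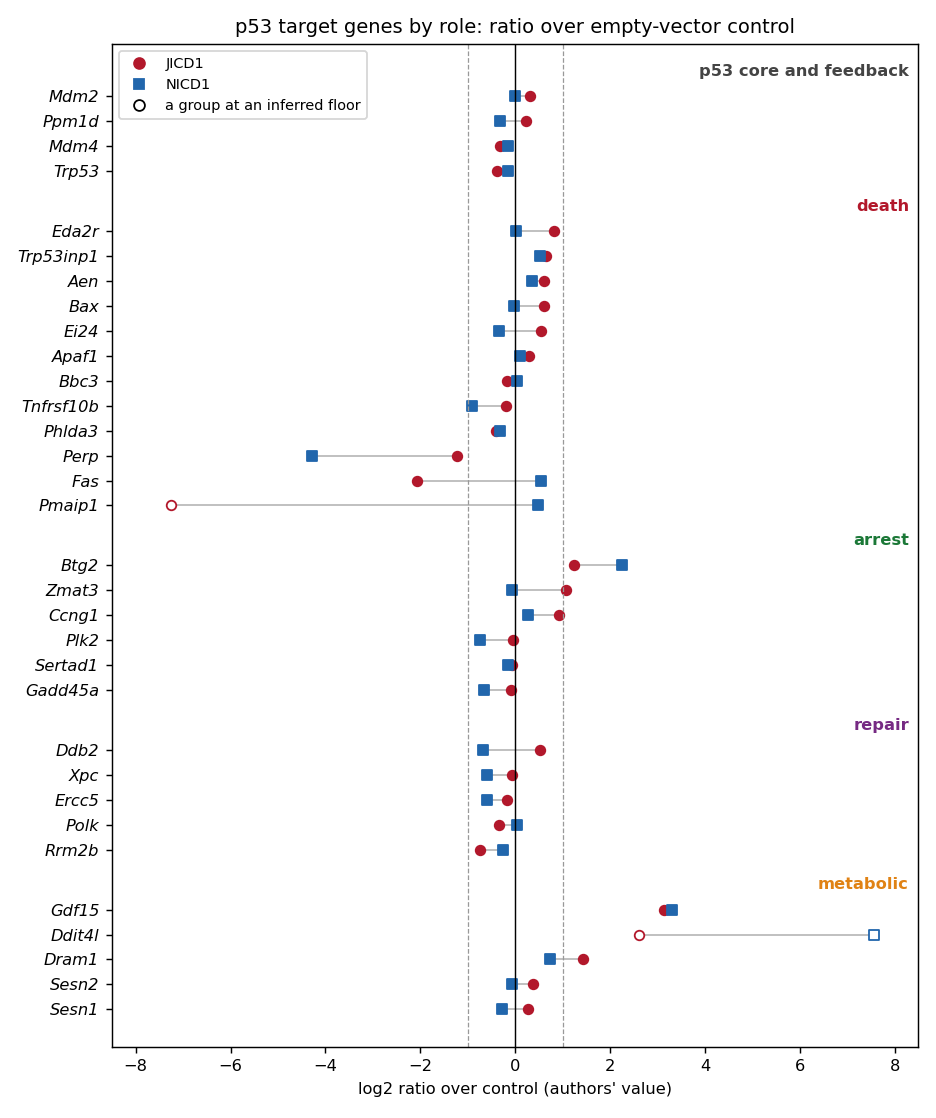
Log2 ratio over control of each of the 32 genes, grouped by role, in the libraries labelled JICD1 (circles) and the NICD1 libraries (squares), as the authors' tables give them, with no error since no value per library was used. Dashed lines mark 2-fold and open symbols a group at an inferred floor; Perp is below the 2-fold line and Btg2, Ddit4l and Gdf15 are above it with both constructs, while all repair genes lie between the lines.

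Scores picked out fewer members. In the libraries labelled JICD1 the single scored member was Perp, which was lower; no member was scored higher, and all genes of the table had 1.07% scored higher and 1.74% scored lower. With NICD1 the scored members were Ddit4l, higher, and Perp, lower, where all genes had 1.64% scored higher and 0.97% scored lower. For Ddit4l the control was inferred at the floor, and among NICD1 members with no group at the floor 0 were scored higher. Zmat3 came close to the limit with JICD1, at 0.797 in the authors' deposited table, as did Ccng1 at 0.786. The median log2 ratio of the members was 0.25 with JICD1, beside 0.045 over all genes, and -0.070 with NICD1, beside -0.016 over all genes. Ratios above 0 were found for 17 of 32 members with JICD1 (53.1%, beside 54.5% of all genes) and for 13 of 32 with NICD1 (40.6%, beside 48.5%).

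**Figure D2:**
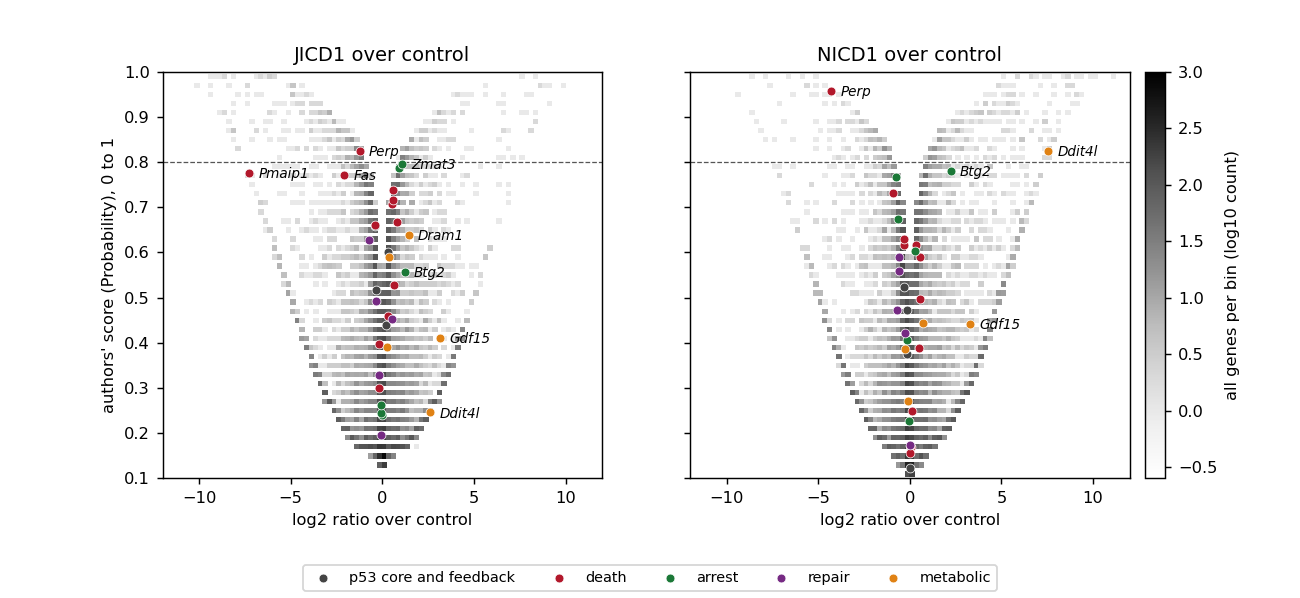
The authors' score (0 to 1) against the log2 ratio over control for the libraries labelled JICD1 (left) and the NICD1 libraries (right); grey squares give the number of all genes per bin and coloured points the 32 genes by role, with names for those past 2-fold. Perp lies above the dashed line at 0.8 in both panels and Ddit4l in the NICD1 panel, at the outer edge of the cloud where genes with a group at the inferred floor lie.

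p53 binds DNA as a tetramer at paired copies of a consensus of 10 bases, called the p53 decamer here. It was searched in the 250 bases before each RefSeq transcript start of GRCm38.p6; the consensus is its own reverse complement, so a search of one strand covers both. Windows of 24 members were searched, and 11 of the 24 (45.8%) held at least 1 exact decamer, beside 2216 of 27025 genes (8.2%) and 7.13% of all 32851 windows. The members are known p53 targets, so this share describes the list and tests nothing. The 11 were Trp53, Mdm2, Ppm1d, Bax, Ei24, Aen, Ccng1, Gadd45a, Polk, Sesn1 and Ddit4l. Each held a single exact decamer, so no window searched held an exact pair. Members with no window in this search were Pmaip1, Tnfrsf10b, Perp, Trp53inp1, Zmat3, Rrm2b, Xpc and Ddb2. Their absence does not show that RefSeq lists no start for them. The share of all genes may not rest on the same choice of windows. Shown first are a feedback gene, a death gene, an arrest gene and a metabolic gene that hold a decamer, in capitals within the 250 bases that end at the base before the start, written 5′ to 3′ on the gene's strand. Mdm2 lies at chr10:117710759-117711008 (minus strand), Ei24 at chr9:36797335-36797584 (minus strand), Ccng1 at chr11:40755287-40755536 (minus strand) and Ddit4l at chr3:137623422-137623671 (plus strand).
Mdm2: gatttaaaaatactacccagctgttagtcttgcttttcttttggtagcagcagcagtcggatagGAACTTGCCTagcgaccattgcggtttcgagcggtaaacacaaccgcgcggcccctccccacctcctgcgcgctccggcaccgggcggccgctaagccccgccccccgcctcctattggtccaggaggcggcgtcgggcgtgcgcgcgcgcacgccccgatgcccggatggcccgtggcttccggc
Ei24: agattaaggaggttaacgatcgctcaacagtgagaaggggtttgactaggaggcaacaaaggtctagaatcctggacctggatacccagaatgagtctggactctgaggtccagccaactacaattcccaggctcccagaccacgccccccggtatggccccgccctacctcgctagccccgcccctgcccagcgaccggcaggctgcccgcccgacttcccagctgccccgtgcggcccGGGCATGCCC
Ccng1: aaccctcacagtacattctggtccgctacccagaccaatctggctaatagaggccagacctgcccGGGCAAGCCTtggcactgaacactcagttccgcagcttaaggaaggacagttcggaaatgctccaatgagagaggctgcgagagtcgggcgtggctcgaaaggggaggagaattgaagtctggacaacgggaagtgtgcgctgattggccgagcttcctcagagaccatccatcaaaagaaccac
Ddit4l: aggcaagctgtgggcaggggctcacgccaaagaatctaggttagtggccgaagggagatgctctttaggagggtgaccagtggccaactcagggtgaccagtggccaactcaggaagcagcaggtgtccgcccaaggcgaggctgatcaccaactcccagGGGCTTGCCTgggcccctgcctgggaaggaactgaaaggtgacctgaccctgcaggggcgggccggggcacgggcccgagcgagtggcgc
Btg2 and Fas, past 2-fold higher and past 2-fold lower with JICD1, held no exact decamer in this window and are shown for contrast, all in lower case. Near matches to the consensus were not searched for, so these windows are not shown to lack one. Btg2 lies at chr1:134079156-134079405 (minus strand) and Fas at chr19:34290409-34290658 (plus strand); p53 sites farther from the start are outside these windows.
Btg2: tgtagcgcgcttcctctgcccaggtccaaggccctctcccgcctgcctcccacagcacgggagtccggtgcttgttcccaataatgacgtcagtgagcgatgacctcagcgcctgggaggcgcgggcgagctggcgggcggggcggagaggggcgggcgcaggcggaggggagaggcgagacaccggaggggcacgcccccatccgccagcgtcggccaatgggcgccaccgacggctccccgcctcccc
Fas: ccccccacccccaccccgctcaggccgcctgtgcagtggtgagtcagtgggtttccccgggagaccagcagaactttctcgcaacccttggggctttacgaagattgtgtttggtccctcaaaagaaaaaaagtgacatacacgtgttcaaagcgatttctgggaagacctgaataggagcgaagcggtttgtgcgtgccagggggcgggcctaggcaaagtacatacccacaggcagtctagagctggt
With JICD1 the 11 members with a decamer had a median log2 ratio of 0.32 and 8 lay above 0, while the 13 without one had a median of -0.038 and 6 lay above 0. With NICD1 the medians were -0.017 for the 11 members with a decamer, 4 of them above 0, and 0.025 for the 13 without, 7 of them above 0. No test was made of these splits.

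**Figure D3:**
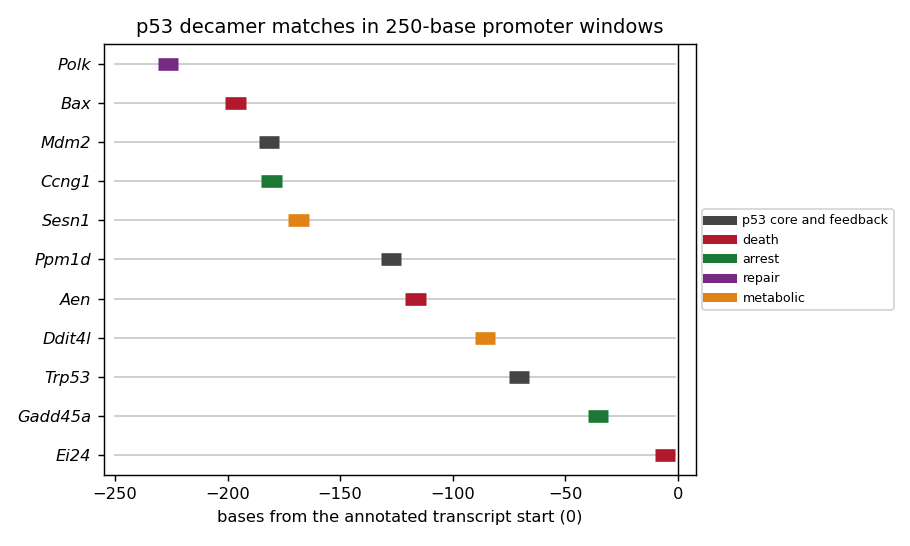
Position of the exact p53 decamer in the promoter windows of the 11 genes that hold one, as distance in bases from the transcript start at 0, coloured by role. The matches begin at positions from -231 in Polk to -10 in Ei24, with no common distance.

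The p53 gene and its feedback regulators lay within 2-fold of control. Trp53, which encodes p53, had a log2 ratio of -0.38 (score 0.659) with JICD1 and -0.15 (score 0.472) with NICD1 in the authors' deposited tables. Mdm2, whose protein marks p53 for degradation and whose gene p53 induces, stood at 0.32 (1.25-fold higher, score 0.602) and at -0.0014 (score 0.122) in the authors' deposited tables, in the order JICD1 and NICD1. Mdm4, the related inhibitor that binds p53's activation domain, was at -0.32 and -0.15, and Ppm1d, the phosphatase Wip1 that reverses p53 and checkpoint phosphorylation, was at 0.22 and -0.32 in the same order. None of the 4 was past 2-fold or scored in either of the authors' deposited tables. The share of all genes within 2-fold was 71.1% for JICD1 and 71.3% for NICD1. With NICD1 the ratios of Trp53, Mdm2, Mdm4 and Ppm1d were all below 0, between -0.32 and -0.0014. Transcript ratios do not measure p53 protein, which is controlled largely by its stability. RefSeq lists a Trp53 pseudogene and an Mdm4 pseudogene; neither has a row in the tables, and the sources used here do not state how shared reads were assigned.

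The death genes held all members that were past 2-fold lower. These were 3 of 12 (25%) with JICD1, beside 14.4% of all genes, and 1 of 12 (8.33%) with NICD1, beside 12.1%. Perp, a p53-induced membrane protein of desmosomes and apoptosis, had a log2 ratio of -1.22 (2.33-fold lower, score 0.825) with JICD1 and of -4.28 (19.4-fold lower, score 0.958) with NICD1 in the authors' deposited tables. Its score stood at percentile 97 of the 300 genes nearest to it in absolute ratio with JICD1 and at 99.7 with NICD1. Fas, the death receptor for Fas ligand, was at -2.07 (4.21-fold lower, score 0.772) with JICD1 and at 0.55 (1.46-fold higher, score 0.589) with NICD1 in the authors' deposited tables. Pmaip1, the BH3-only protein Noxa that neutralises Mcl1, was at -7.27 (score 0.776) with JICD1, where the libraries labelled JICD1 were inferred to lie at the floor, and at 0.47 (score 0.39) with NICD1 in the authors' deposited tables. Fas and Pmaip1 thus lay on opposite sides of control with the 2 constructs, and Perp on the same side.

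The other 9 death genes lay within 2-fold in both tables. Bbc3, the BH3-only protein Puma, was at -0.18 with JICD1 and 0.042 with NICD1, and Bax, the pore-forming effector, was at 0.61 (1.52-fold higher, score 0.739) and -0.017 in the authors' deposited tables. Apaf1, the apoptosome scaffold, was at 0.30 and 0.094, and Aen, an apoptosis-enhancing nuclease, at 0.61 and 0.35, in the same order in the authors' deposited tables. Among the receptors, Tnfrsf10b, the TRAIL receptor, was at -0.19 with JICD1 and -0.91 (1.87-fold lower, score 0.731) with NICD1, and Eda2r, the ectodysplasin A2 receptor, was at 0.81 (1.76-fold higher, score 0.667) and 0.025 in the authors' deposited tables. Ei24, an endoplasmic reticulum protein of autophagy, was at 0.54 and -0.33, Trp53inp1, a stress protein that promotes p53 activity, at 0.64 and 0.53, and Phlda3, an inhibitor of Akt, at -0.40 and -0.32 in the authors' deposited tables. In all, 6 of the 12 death genes were above 0 with JICD1 and 7 with NICD1, and the medians were 0.060 and 0.034. The ratio of Ei24 may include reads of Gm26787, an antisense gene that shares 324 exonic bases with it, since the sources used here do not state whether counting used strand. Bax shares 192 exonic bases with Gm45808 on the same strand.

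Among the arrest genes with JICD1, Btg2 and Zmat3 were past 2-fold higher, Ccng1 came close to it, and the other 3 lay near control. Btg2, which restrains proliferation as part of the mRNA deadenylation machinery, had a log2 ratio of 1.24 (2.36-fold higher, score 0.558) with JICD1 and 2.25 (4.75-fold higher, score 0.780) with NICD1 in the authors' deposited tables. Zmat3, an RNA-binding zinc finger protein induced by p53, was at 1.07 (2.11-fold higher, score 0.797) with JICD1 and at -0.062 (score 0.228) with NICD1 in the authors' deposited tables. Ccng1, cyclin G1, which brings protein phosphatase PP2A to Mdm2 and whose promoter is printed above, was at 0.93 (1.90-fold higher, score 0.786) with JICD1 and 0.28 (score 0.604) with NICD1 in the authors' deposited tables. Plk2, a polo-like kinase of the stress response, was at -0.038 with JICD1 and -0.73 (1.66-fold lower, score 0.767) with NICD1 in the authors' deposited tables. Gadd45a, a growth arrest and DNA damage protein, was at -0.084 and -0.65, and Sertad1, a CDK4-binding protein, at -0.058 and -0.15, in the order JICD1 and NICD1 in the authors' deposited tables. Gadd45a shares 337 exonic bases with E230016M11Rik on the opposite strand. The Btg2 ratio was the larger one with NICD1, and of the 6 arrest genes the other 5 had the larger value with JICD1.

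All 5 metabolic and stress genes had ratios above 0 with JICD1, beside 54.5% of all genes. With NICD1, 3 of 5 did, beside 48.5% of all genes. Gdf15, a secreted cytokine induced by p53 and by the integrated stress response, had nearly the same log2 ratio in both of the authors' deposited tables, 3.14 (8.84-fold higher, score 0.411) with JICD1 and 3.30 (9.82-fold higher, score 0.443) with NICD1. Ddit4l, an inhibitor of mTORC1 related to Redd1, was at 2.62 (score 0.247) with JICD1 and at 7.57 (score 0.825) with NICD1 in the authors' deposited tables; the control group was inferred at the floor in both comparisons, so no fold is given. Dram1, a lysosomal protein of p53-induced autophagy, was at 1.44 (2.71-fold higher, score 0.639) with JICD1 and 0.73 (1.66-fold higher, score 0.444) with NICD1 in the authors' deposited tables. The sestrins, stress proteins that hold back mTORC1, stayed near control: Sesn1 was at 0.27 with JICD1 and -0.27 with NICD1, and Sesn2 at 0.37 and -0.077, in the authors' deposited tables. The scores of Gdf15 were below 0.8, at percentile 76.7 (JICD1) and 82.3 (NICD1) of the 300 genes nearest to it in absolute ratio. Many genes of such a ratio have low scores: with JICD1, 90 genes had a log2 ratio near 3.125 and a score near 0.29, where genes at the inferred floor lie. These percentiles therefore do not mark a high score.

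The repair genes all stayed within 2-fold, with every ratio between -0.74 and 0.52. Most genes did so too, 71.1% of all genes for JICD1 and 71.3% for NICD1. With NICD1, 4 of 5 lay below 0: in the authors' deposited table Ddb2 was at -0.68 (score 0.474), Ercc5 at -0.59 (score 0.591), Xpc at -0.59 (score 0.559) and Rrm2b at -0.26 (score 0.422), with Polk at 0.029. Xpc and Ddb2 recognise damage in nucleotide excision repair, Ercc5 is its 3′ endonuclease, Polk is a translesion polymerase, and Rrm2b is the p53-inducible subunit of ribonucleotide reductase. With JICD1 the order differed: in the authors' deposited table Ddb2 was the single one above 0, at 0.52 (score 0.452), and Rrm2b was lowest at -0.74 (1.67-fold lower, score 0.627), with Polk at -0.34, Ercc5 at -0.18 and Xpc at -0.062. Ddb2 shares 652 exonic bases with Acp2, and Rrm2b 734 with Gm49085, each on the opposite strand.

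Set side by side, the role groups had different medians. With JICD1 the median log2 ratio was 1.44 for the metabolic genes, 0.44 for arrest, 0.060 for death, -0.049 for the core and feedback genes and -0.18 for repair. With NICD1 it was 0.73 for metabolic, 0.034 for death, -0.11 for arrest, -0.15 for core and feedback and -0.59 for repair. The repair group was lowest and the metabolic group highest with both constructs. Both comparisons use the same control, so this shared order is not independent. No arrest gene lay near the arrest median with JICD1: the next gene above it was Ccng1 at 0.93 and the next below was Plk2 at -0.038. The metabolic medians rest on few genes: without Dram1 and Gdf15 they were 0.37 with JICD1 and -0.077 with NICD1. The metabolic group was then no longer highest, as it fell below arrest with JICD1 and below death with NICD1.

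**Figure D4:**
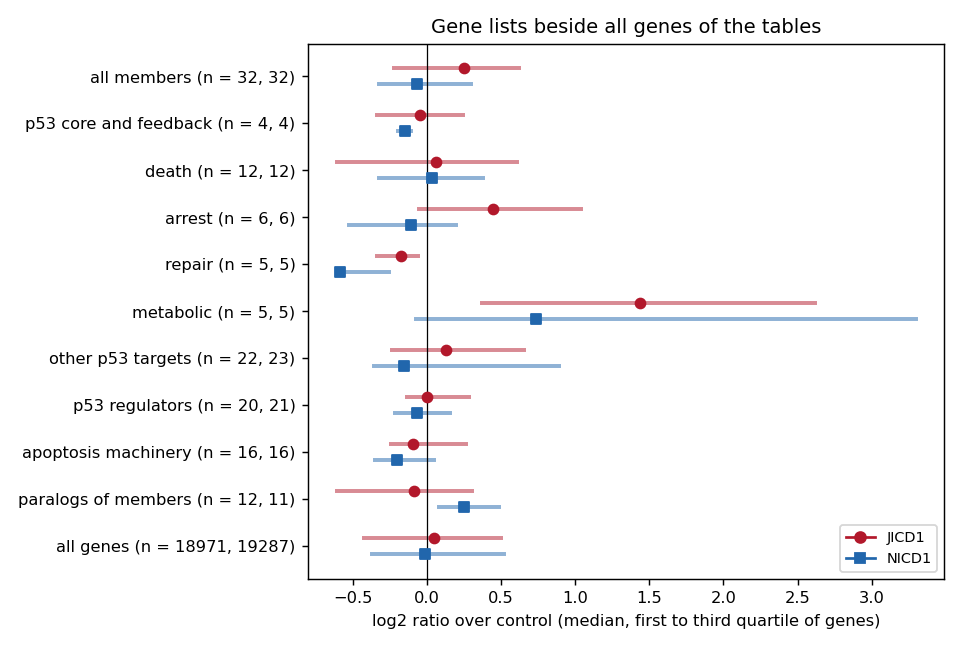
Median log2 ratio over control (symbols) and interquartile range over genes (bars) of each role group, of the other p53-related lists and of all genes, for the libraries labelled JICD1 (circles) and the NICD1 libraries (squares); n gives genes with a ratio in each table. Bars show spread over genes and not error over libraries, and the metabolic group, with 5 genes, is the widest.

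The difference of a gene's ratios gives JICD1 over NICD1 directly, since the control cancels, again with no error. By the authors' deposited tables, 21 of 32 members had the larger value in the libraries labelled JICD1 and 11 in the NICD1 libraries, with a median log2 difference of 0.37; among the 18182 genes with both ratios, 52.5% had the larger value with JICD1 and the median was 0.040. A log2 difference of 1 or more was found for 3 members, Perp (3.06), Ddb2 (1.20) and Zmat3 (1.14), beside 10.6% of all genes. A difference of -1 or less was found for 4 members, Pmaip1 (-7.74), Ddit4l (-4.95), Fas (-2.62) and Btg2 (-1.01), beside 13.6% of all genes. The value of Pmaip1 gives a direction and not a size, since its libraries labelled JICD1 were inferred at the floor. For Perp both groups were below control, for Ddit4l and Btg2 both were above, and for Fas and Pmaip1 the NICD1 libraries were above control and those labelled JICD1 below. In all, 9 members were above 0 and 11 below 0 with both constructs, 8 were above with JICD1 and below with NICD1, and 4 the other way round. Such joint counts were not computed over all genes. Of the 12 death genes 8 had the larger value with JICD1, as did 5 of 6 arrest genes, 3 of 5 repair genes and 3 of 5 metabolic genes.

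**Figure D5:**
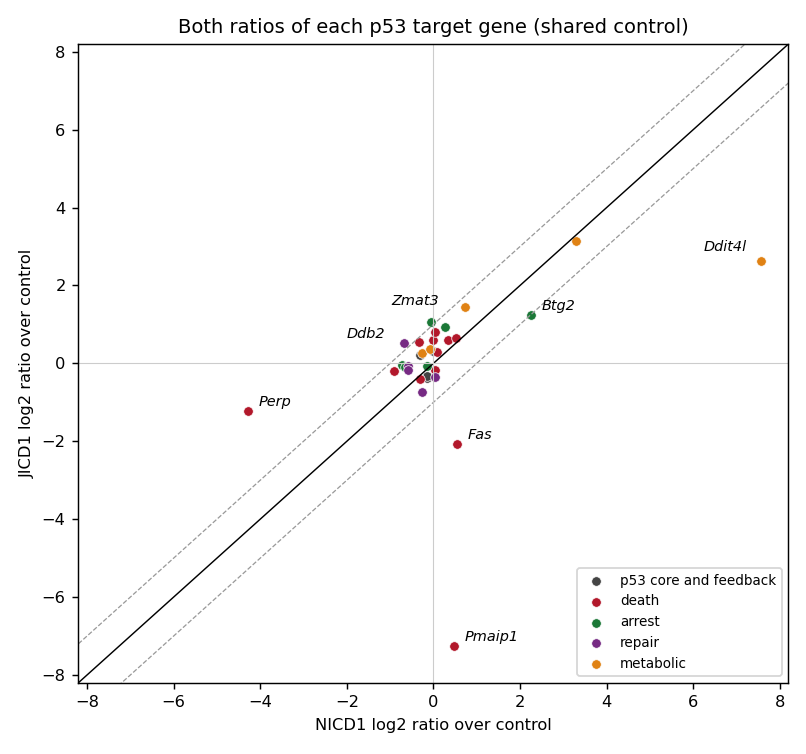
Log2 ratio over control of each of the 32 genes in the libraries labelled JICD1 (vertical) against the NICD1 libraries (horizontal), coloured by role. The solid line marks equal ratios and the dashed lines a log2 difference of 1; the named genes lie outside the dashed lines, and since both axes share the control the spread along the diagonal is partly shared.

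Other p53 targets, from a list of 23 genes, went both ways. Of 22 with a ratio for JICD1, 4 were past 2-fold higher and 2 lower, with 2 scored higher and 1 lower; of 23 for NICD1, 5 were past 2-fold higher and 2 lower, with 4 scored higher and 1 lower. In percent these are 18.2 and 9.09 past 2-fold for JICD1, beside 14.5% higher and 14.4% lower of all genes, and 21.7 and 8.70 for NICD1, beside 16.6% and 12.1%. Of all genes, 1.07% were scored higher and 1.74% lower for JICD1, and 1.64% and 0.97% for NICD1. Their medians were 0.13 and -0.16. Cdkn1a, the CDK inhibitor p21 and the best known arrest target of p53, was scored with both constructs, at 2.35 (score 0.889) with JICD1 and 1.57 (score 0.850) with NICD1 in the authors' deposited tables. Psrc1, a spindle protein, was scored with JICD1 at 1.72 in the authors' deposited table and stood at 0.79 with NICD1. With NICD1 the authors' deposited table also scored Trp53i11 at 8.19, with its control inferred at the floor, the tetraspanin gene Cd82 at 1.47, and Steap3, an endosomal ferrireductase gene, at -1.44; with JICD1 these stood at 2.77, -0.0065 and -0.48.

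Most regulators of p53 lay within 2-fold of control, as did most genes. Of 20 measured for JICD1, 18 lay within 2-fold and none was scored, with a median of 0.0011; of 21 measured for NICD1, 19 lay within 2-fold, with a median of -0.069. These are 90.0% and 90.5%, beside 71.1% and 71.3% of all genes, or 81.1% and 82.1% of genes with no group at the floor. The latter shares are higher by rule, since a group at the floor was called only for genes past 2-fold. Past 2-fold with both constructs was Ppp1r13b, the p53-binding protein ASPP1, at 1.84 (score 0.651) with JICD1 and 2.27 (score 0.748) with NICD1 in the authors' deposited tables. Trp63, a relative of p53, was below control with JICD1, with that group inferred at the floor. The kinase gene Hipk2 was at -0.88 (score 0.734) with JICD1 and -0.071 with NICD1 in the authors' deposited tables. The scored regulator was Cdkn2a, at 7.59 (score 0.827) in the authors' deposited table for NICD1, with its control inferred at the floor; it had no ratio for JICD1. The sources used here do not state whether its reads lie in the deleted part of the locus.

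Markers of other cell types also differed from control, and their part in the p53 results was not tested. All 5 fibroblast and pericyte markers with a ratio for JICD1 were below 0 (median -2.81), and 4 of 6 were with NICD1 (median -1.54); in the order JICD1 and NICD1, the authors' deposited tables gave Dcn -8.67 and -5.08, Col3a1 -2.81 and -3.31, Anpep -3.79 and -1.86, and Pdgfrb -2.17 and 0.083. For Dcn the libraries labelled JICD1 were inferred at the floor, so -8.67 gives a direction and not a size. Lum had no row in either table. Of the astrocyte list, 9 of 10 genes had a ratio, with medians of -0.84 with JICD1 and -0.72 with NICD1; Aqp4 had no row. In the authors' deposited tables Clu was scored lower with both constructs (-3.88 and -2.30), Nfia stood at 3.77 and 1.86, Sox9 at -0.84 and -1.65, and Gfap at -1.36 (score 0.242) and -1.52 (score 0.261). Neuron markers went both ways, 3 of 5 above 0 with JICD1 and 3 of 4 with NICD1 (medians 0.57 and 3.35); in the authors' deposited tables Map2 was at 3.02 and 3.95, Gap43 at 2.78 and 3.96, Tubb3 at -2.16 and -3.67 and Stmn2 at -2.84 and 2.76. Of 7 microglia markers 5 were below 0 with JICD1 and 1 with NICD1 (medians -0.61 and 0.96), and Tmem119 was scored for JICD1 at -8.48 in the authors' deposited table; no endothelial or oligodendrocyte marker was scored, with medians of 0.48 and 1.70 and of 0.31 and 0.40. Ratios do not give levels, so the astrocyte label itself could not be checked, and fewer cells of a type cannot be told apart from less RNA per cell.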

How the data were processed

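RNA-seq of 9 libraries (3 each labelled JICD1, NICD1 and control) was analysed from the 2 tables of the authors. The submitters' processing notes name Bowtie2, BWA and mm9 with no role or version; many gene descriptions in the deposited tables instead carry GRCm38 coordinates. Counting, and how libraries were combined, are not given in the sources used here. Per the file headers, the authors made 1 log2 ratio of a transfected group over control per gene; the authors' score, called Probability in the file headers, has no stated method and is not a p-value. The deposited tables give no value per library, so the edgeR test foreseen for counts was not run and depth is unknown.

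Members were matched by symbol or by gene identifier (RefSeq GRCm38.p6 and GENCODE names, 18681 of 18971 and 18998 of 19287 genes named). By the tables' own symbols alone, 13 members matched for JICD1 and 12 for NICD1. Members, lists and thresholds were chosen with earlier results of these data known. All members are named; of other lists, genes scored 0.8 or more, at most 4 per marker list, and always Cdkn1a and Cdkn2a; a gene that this rule names is not reported here. Ppp1r13b, Trp63, Hipk2, Gfap, Aqp4 and Lum were added after their values were seen, as was every unscored gene of the closing section. The floor was inferred from 694 equal negative ratios (tolerance 1e-06; distance to the score curve at most 0.002, or 0.01 above a log2 of 6). Python 3.11.15 and pandas 2.3.3 were used.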

Additional observations from a re-analysis of the deposited data

How the results depend on the processing

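No paired analysis was possible because the tables hold no value per library, and leaving out replicates was not run for the same reason. Counts moved with thresholds, as fewer or more genes then pass. At 1.5-fold, 10 members were higher with JICD1 and 7 lower with NICD1; at 4-fold, 2 were higher with JICD1. At a score of 0.7, JICD1 had 5 members higher and 3 lower and NICD1 2 higher and 3 lower; at 0.9, JICD1 had 0 lower and NICD1 0 higher. With the tables' own symbols only, 2 members were past 2-fold higher with JICD1, since fewer genes were matched. Without genes at the inferred floor, the JICD1 medians were 0.30 for death and 0.90 for metabolic, and the NICD1 metabolic median was 0.33. With Gadd45a moved to repair, the JICD1 arrest median was 0.93. Without Dram1 and Gdf15 the metabolic medians were 0.37 with JICD1 and -0.077 with NICD1, where the sign turned. The other 54 recomputed values kept their sign and moved by less than a log2 of 0.1, or, for counts, by no more than 1.5 times.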

Other observations

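Most genes of the general apoptosis machinery lay within 2-fold of control. By the authors' deposited tables, 15 of its 16 genes (93.8%) were within 2-fold with either construct and none was scored. Of all genes, 71.1% were within 2-fold for JICD1 and 71.3% for NICD1. The medians of the 16 were -0.093 with JICD1 and -0.21 with NICD1. The one gene past 2-fold was Bcl2l11, the BH3-only protein Bim, at 1.09 (score 0.636) with JICD1 and 1.66 (score 0.772) with NICD1 in the authors' deposited tables. The survival gene Mcl1 was at 0.83 with JICD1 and -0.035 with NICD1, in the authors' deposited tables.

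Paralogs of the p53 targets had ratios of both signs. In the authors' deposited tables Ddit4, the Redd1 gene related to Ddit4l, was scored lower with JICD1 at -1.13 and stood at 0.024 with NICD1. Gadd45g was scored higher with JICD1 at 1.14 and stood at 0.45 with NICD1, while Gadd45a was at -0.084 and -0.65, in the authors' deposited tables. Sesn3 was at 1.66 (score 0.745) with NICD1 and -0.23 with JICD1 in the authors' deposited tables. Of the 12 paralogs listed, 6 of 12 with a ratio were above 0 for JICD1 and 9 of 11 for NICD1. Over all genes, 54.5% were above 0 for JICD1 and 48.5% for NICD1, and 1.07% were scored higher and 1.74% lower for JICD1. None of these differences between relatives was tested.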
